A study of Mus musculus with 32 samples.

Results

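The translation initiation and elongation factors are the genes that bring the ribosome to a messenger RNA and move it along. The group was formed from the protein-coding genes of the count table whose mouse symbol begins with Eif1 to Eif6 or with Eef1 or Eef2, without the X- and Y-linked forms of Eif2s3 and Eif1a. It held 63 of the 37310 genes in the table. The rule uses no expression value. RNA was sequenced from 6 GMYC and 8 GTML tumor biopsies, fresh-frozen brain tumors of 2 mouse models of Group 3 medulloblastoma, a malignant childhood tumor of the cerebellum. GMYC mice carry the tetracycline-controlled transactivator tTA under the Glt1 promoter together with a TRE-MYC transgene, and were kept doubly hemizygous in the FVB/N strain. GTML mice carry the same Glt1-driven transactivator and express MYCN in place of MYC. The study's methods give FVB/N as the background of all its transgenic crosses, so both models share it. The study's own test between the models left out a GTML tumor that it did not class as Group 3. The labels do not mark that tumor, so all 8 were used here. Results without GTML 2 are given beside them. GTML 2 was picked because it stood apart in the values of these same factors, and no label says that it is the tumor the study left out. Fits without it are a description and no separate support. In both models the transgene is on without doxycycline, only cells in which the Glt1 promoter is active make the transactivator, and the host keeps its immune system. The labels give neither an age nor a treatment for the biopsies, and do not say that each came from a different mouse. The p-values below therefore set the difference between the models against the spread between these biopsies, which may not be independent mice.

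Initiation begins when eIF2 brings the initiator tRNA to the small ribosomal subunit, on which eIF3 is the largest assembly. The eIF4F complex, made of the cap-binding protein eIF4E, the scaffold eIF4G and the helicase eIF4A, recruits the messenger RNA and is held back by the 4E-binding proteins, which the kinase mTORC1 inactivates. During elongation eEF1A delivers each aminoacyl-tRNA and eEF2 drives the ribosome forward. MYC proteins are known to bind E-box sequences, of which CACGTG is the canonical form, and genes of ribosome production and translation are among their best known targets.

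RefSeq promoter windows of 300 bases on the GRCm38.p6 assembly, from 250 bases before to 50 bases after each start, were matched to 48 of the 63 genes. The letters CACGTG, which read the same on both strands, were present in a window of 12 of these 48 genes (25.0%). The same letters were in a window of 8.09% of all 27025 genes with a promoter window, which were not limited to the count table. They were in a window of 11.1% of the 11919 protein-coding genes tested that had one, and in 7.15% of all 32851 windows. The 12 genes were Eif4e, Eif4a1, Eif4g1 and Eif4h of the cap-binding machinery, Eif3a, Eif3f and Eif3k of eIF3, both eIF5A genes Eif5a and Eif5a2, and Eif1b, Eef2 and the eEF2 kinase gene Eef2k. The 250 bases before the start are shown, on the strand of the gene with CACGTG in capitals, for the 2 factors after which the group is best known, Eif4e (chr3:138527018-138527267, plus strand) and Eef2 (chr10:81176381-81176630, plus strand), for Eif5a2 (chr3:28781027-28781276, plus strand), whose window also held 2 copies, and for Eif3g (chr9:20898591-20898840, minus strand), which had the smallest p of the group in the comparison of the models and no copy.
Eif4e: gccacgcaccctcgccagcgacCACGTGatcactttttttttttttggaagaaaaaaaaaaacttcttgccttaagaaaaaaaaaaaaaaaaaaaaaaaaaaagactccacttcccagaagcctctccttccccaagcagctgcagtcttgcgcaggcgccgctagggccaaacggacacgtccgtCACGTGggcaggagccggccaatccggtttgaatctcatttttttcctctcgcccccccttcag
Eef2: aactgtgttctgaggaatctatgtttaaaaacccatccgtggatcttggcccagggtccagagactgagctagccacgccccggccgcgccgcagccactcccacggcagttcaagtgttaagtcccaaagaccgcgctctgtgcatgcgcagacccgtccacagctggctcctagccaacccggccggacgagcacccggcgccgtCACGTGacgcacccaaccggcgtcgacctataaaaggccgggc
Eif5a2: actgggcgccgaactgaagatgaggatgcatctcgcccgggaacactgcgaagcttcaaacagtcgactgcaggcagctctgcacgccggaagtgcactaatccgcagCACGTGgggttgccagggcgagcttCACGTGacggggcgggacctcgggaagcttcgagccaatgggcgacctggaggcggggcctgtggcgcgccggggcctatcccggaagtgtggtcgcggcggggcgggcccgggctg
Eif3g: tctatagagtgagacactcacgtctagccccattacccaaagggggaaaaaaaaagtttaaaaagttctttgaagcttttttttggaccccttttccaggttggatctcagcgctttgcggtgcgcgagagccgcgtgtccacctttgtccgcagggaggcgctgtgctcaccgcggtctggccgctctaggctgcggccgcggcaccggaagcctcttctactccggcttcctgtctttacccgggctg
A match of these letters is a description of the sequence and not a binding site. The related letters CACGCG, or CGCGTG on the other strand, were found for 10 of the 48 genes (20.8%). Eif3g was among them, with CGCGTG in the stretch shown. These letters were found for 10.5% of all 27025 genes with a window and 18.7% of the 11919 protein-coding genes tested that had one.

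Total counts per tumor ranged from 6218378 to 7279811 in GMYC and from 4602294 to 6317404 in GTML, and the factors took between 0.901% and 1.06% of all counts in GMYC tumors and between 0.746% and 0.962% in GTML tumors. Counts on the mouse Myc gene followed the labels, with 134 to 166 CPM (counts scaled to the TMM-normalized library size) in GMYC 1 to 5 and 2.60 to 8.68 in GTML. GMYC 6 had 33.4 CPM on Myc, near its 34.4 on Mycn. The study describes the transgene as human MYC, so counts on mouse Myc may not measure it directly. Counts on Mycn also followed the labels (7.65 to 34.4 in GMYC and 119 to 191 in GTML). The Group 3 marker Otx2 was present in every tumor (237 to 378 CPM). A pair of features of the libraries bear on the factors. GTML tumor 2 stood apart, since the median of its log2 deviations from the gene means over the factors was 0.17, while the other GTML tumors lay between -0.23 and 0.02 and the GMYC tumors between -0.0048 and 0.33. Tumors also fell into those with at least 0.3% of their counts on small nucleolar RNA genes (GMYC 1 to 4, GTML 1 and 2) and those with less (GMYC 5 and 6, GTML 3 to 8), so that this share moved with the model. Both sides held tumors of both models. The split matched the order of the sample records, in which GMYC 1 to 4 and GTML 1 and 2 came first. The labels do not say what this order stands for. The study's methods describe part of the GTML tumors as sequenced earlier than the GMYC tumors, and the labels do not say which, so model and sequencing occasion cannot be told apart.

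Of the 63 genes, 62 passed the filter on low counts (a CPM above 1 in at least 3 tumors) and were tested among 21024 genes, and the exception was Eif4e1b. At an adjusted p under 0.05 in edgeR's quasi-likelihood test with Benjamini-Hochberg adjustment over all 21024 genes, 17 factors were lower in GTML, where 9.71% of all genes tested were lower, and 2 were higher, where 11.5% of all genes were higher. The other 43 were not called. Among the 6334 protein-coding genes with a mean of at least 50 CPM, a level that 50 of the factors reached, 11.2% were lower and 8.34% higher. The log2 fold change of GTML over GMYC was below 0 for 51 of the 62 factors and had a median of -0.24, while its median over all genes tested was 0.04 with 47.5% of genes below 0. Over the 6334 protein-coding genes with a mean of at least 50 CPM the median was -0.03, with 54.3% below 0. In bulk biopsies, fewer cells of a type and less RNA per cell cannot be told apart. Markers of red blood cells also moved with the model, with 3 of 4 called lower in GTML and a mean log2 CPM of 3.48 to 5.24 in GMYC tumors and 2.11 to 3.78 in GTML tumors. Of the markers of astrocytes, oligodendrocytes, mature neurons, microglia and endothelium, at most 1 of each list was called in either direction, the ranges of their mean levels overlapped between the models, and no marker was at 0 in every tumor. The part of these cells in the differences was not tested.

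The calls depended on which tumors were included. Without GTML 2, 30 factors were called lower and 2 higher, beside 15.1% and 15.6% of all genes, and 18 of the 19 calls made with all tumors were made again. Because GTML 2 was set aside for its values in these factors, the larger count is no separate support. Within the tumors of higher small nucleolar RNA share, 4 GMYC against 2 GTML, the same test called no factor (8 lower and 1 higher had an unadjusted p under 0.05) and 2 of 18921 genes in all, both lower (0.0106%, with 0% higher), and the median log2 fold change of the factors was -0.0045. Within the tumors of lower share, 2 GMYC against 6 GTML, 10 factors were lower and 2 higher, beside 6.69% and 6.66% of all genes, and the median was -0.40. Whether the difference between the models differed between these sides was not tested. Gene by gene, GTML 3 and GTML 5 to 8 each lay below all 6 GMYC tumors in 36 to 39 of the 62 factors, where 22.7% to 27.9% of all genes tested and 25.6% to 35.6% of the protein-coding genes with a mean of at least 50 CPM did so in the same tumors. GTML 1 and GTML 4 did in 22 factors each, beside 20.8% and 22.4% of all genes, and GTML 2 in 13, beside 21.6%. GTML 2 lay above all GMYC tumors in 17 factors, a share near the 24.2% of all genes in that tumor.

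**Figure D1:**
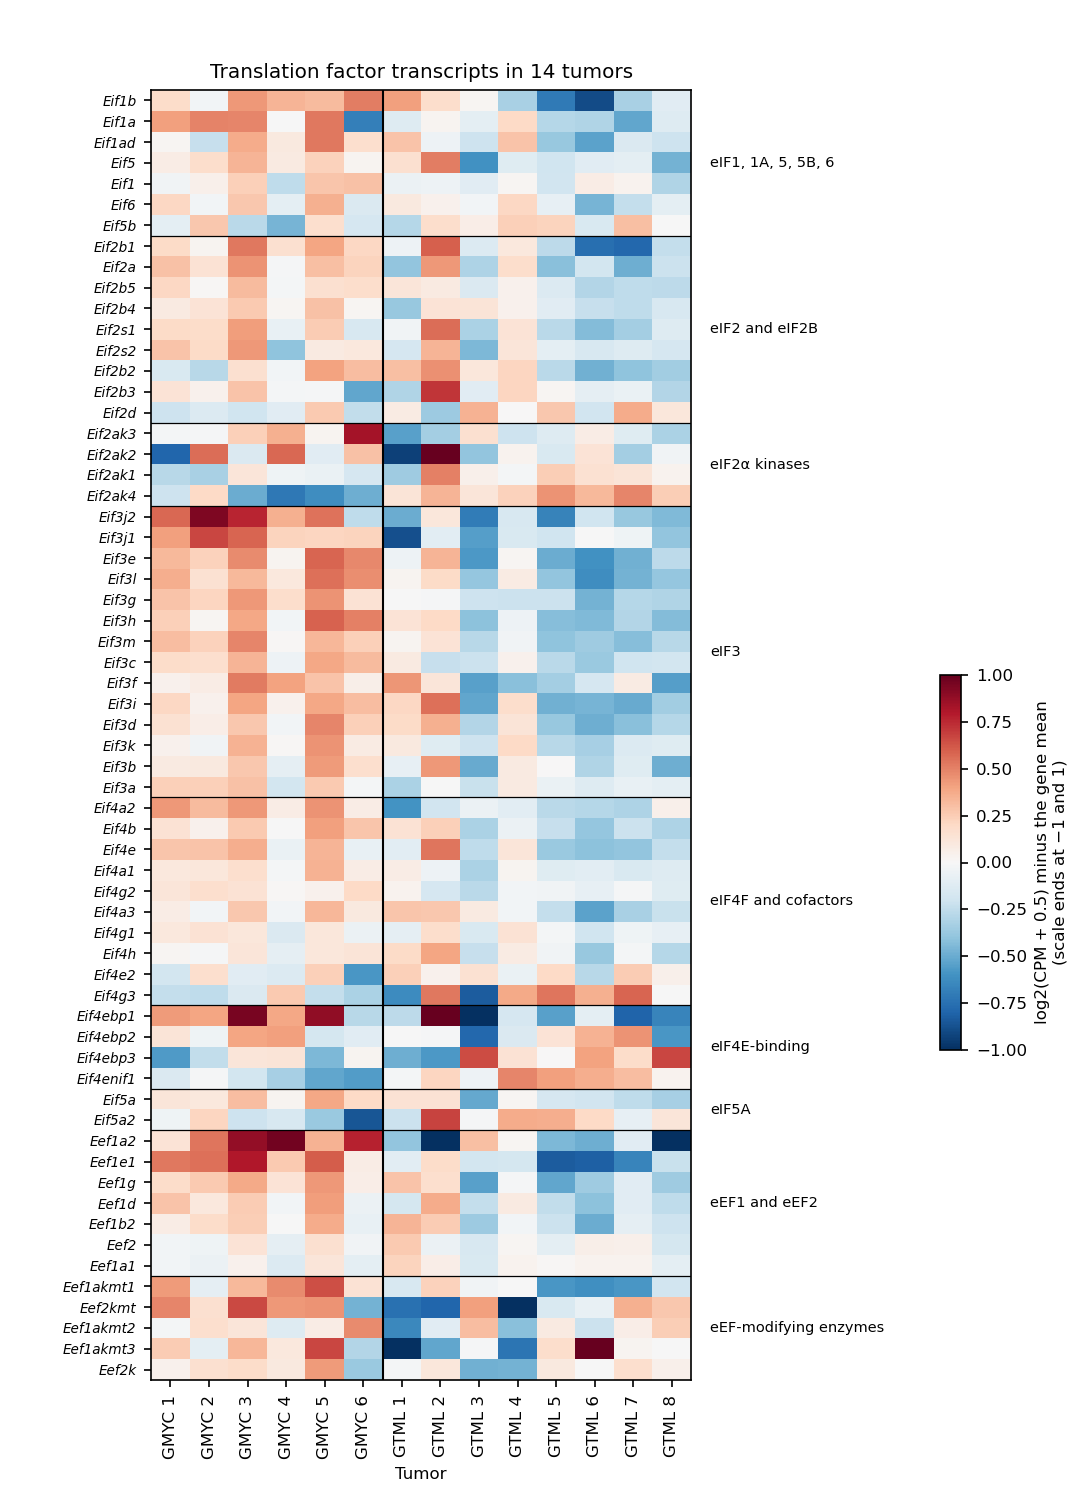
Expression of the 62 factors tested in the 6 GMYC and 8 GTML tumors, one row per gene grouped by role and one column per tumor, with the color giving log2(CPM + 0.5) minus the mean of the gene over the 14 tumors. Most eIF3 rows are red in GMYC tumors and blue in GTML 3 and GTML 5 to 8, and many rows of GTML 2 are red.

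The factors that scan for and join at the start codon showed no call. This group of 7 holds Eif1, Eif1b, Eif1a and Eif5, which guard start codon selection, Eif5b, which joins the ribosomal subunits, Eif6, which keeps them apart, and Eif1ad. Their log2 fold changes ran from -0.47 to 0.16 with 6 of 7 below 0. Eif1b had the smallest p of them, with 35.2 to 51.3 CPM in GMYC (median 45.2) and 19.0 to 47.8 in GTML (median 30.8). Of the GTML tumors, 5 lay below every GMYC tumor and 3 inside the GMYC range, and the difference did not pass the test (log2 fold change -0.47, SE 0.19, adjusted p = 0.085 in edgeR's test). A processed pseudogene named for Eif1, Eif1-ps1, received 3 to 31 counts per tumor, so reads may have been divided between such copies and the parent gene.

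None of the 9 genes of eIF2, its exchange factor eIF2B and the related initiator tRNA carriers was called. The 2 eIF2 subunit genes in the group, Eif2s1 and Eif2s2, had log2 fold changes of -0.22 (SE 0.15) and -0.21 (SE 0.13), and the 5 eIF2B subunit genes ran from -0.39 for Eif2b1 to 0.04 for Eif2b3. Eif2a, which encodes a separate initiator tRNA carrier and not the phosphorylated subunit of eIF2, had the smallest p. It was measured at 123 to 169 CPM in GMYC tumors (median 148) and at 88.1 to 168 in GTML tumors (median 103). GTML 2, at 168 CPM, was the highest GTML tumor, GTML 4 was next at 139.9, and the other 6 lay below every GMYC tumor. The log2 fold change was -0.38 (SE 0.14, adjusted p = 0.0641 in edgeR's test), and without GTML 2 it was -0.49 with an adjusted p of 0.00691 in the same test. The latter fit is no separate support, as GTML 2 was picked for its values in these factors.

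The 4 kinases that phosphorylate eIF2 alpha, and so lower initiation under stress, held 1 call in each direction and 2 genes that were not called. Eif2ak4 encodes GCN2, which senses uncharged tRNA when amino acids are scarce, and was higher in GTML. Its values in GMYC tumors 1 to 6 were 85.3, 113, 69.8, 59.7, 63.7 and 70.3 CPM, and those in GTML tumors 1 to 8 were 108, 125, 107, 116, 135, 124, 138 and 117 CPM. All GTML tumors lay above 5 of the 6 GMYC tumors, and GMYC 2 was inside the GTML range. This was a log2 fold change of 0.65 (SE 0.14, a 1.57-fold difference, adjusted p = 0.00715 in edgeR's test), and the call was kept in each of the 14 fits that left out 1 tumor. Eif2ak3, the gene of the endoplasmic reticulum kinase PERK, was lower in GTML (log2 fold change -0.43, SE 0.15, adjusted p = 0.0477 in edgeR's test). It was measured at 96.2 to 175 CPM in GMYC and 66.8 to 109 in GTML, its highest value came from GMYC 6, and the call was kept in 3 of the 14 fits. The heme-regulated kinase gene Eif2ak1 (log2 fold change 0.23, SE 0.13) and Eif2ak2, the gene of the double-stranded RNA-activated kinase PKR (-0.04, SE 0.32), were not called.

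eIF3 accounted for 8 of the 17 factors lower in GTML. Among all genes tested 9.71% were called lower, and among the protein-coding genes with a mean of at least 50 CPM 11.2%. All 14 tested eIF3 genes had a log2 fold change below 0, from -0.89 to -0.25 with a median of -0.43, and none was called higher. Below 0 lay 47.5% of all genes tested and 54.3% of those protein-coding genes. The 8 called genes were Eif3j2, Eif3j1, Eif3e, Eif3l, Eif3g, Eif3h, Eif3m and Eif3c. The 6 that were not called, Eif3f, Eif3i, Eif3d, Eif3k, Eif3b and Eif3a, had log2 fold changes of -0.38 to -0.25 and included the large scaffold subunits Eif3a and Eif3b.

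Eif3g, an RNA-binding subunit that touches the messenger RNA during scanning, separated the models fully. GMYC tumors 1 to 6 had 118, 113, 131, 109, 132 and 107 CPM, and GTML tumors 1 to 8 had 96.8, 96.3, 83.7, 83.2, 83.4, 69.7, 79.4 and 78.6 CPM. Every GTML tumor, GTML 2 included, was below every GMYC tumor. In edgeR's test the log2 fold change was -0.50 (SE 0.10, 1.41-fold higher in GMYC, adjusted p = 0.0056 in edgeR's test). Among the 62 factors, 3 had all GTML tumors below all GMYC tumors (Eif3g, Eif3j1 and Eif4a2), where 2.48% of all genes tested and 2.37% of the protein-coding genes with a mean of at least 50 CPM did, and 0 had them all above, where 2.14% did.

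Eif3j1 and Eif3j2 encode the same loosely bound subunit, eIF3j, from separate loci. Eif3j1 was measured at 30.4 to 41.8 CPM in GMYC (median 32.7) and at 13.9 to 26.0 in GTML (median 23.0), so that the ranges did not meet. Eif3j2 was measured at 27.4 to 63.2 CPM in GMYC (median 48.5) and at 20.0 to 35.5 in GTML (median 24.5), with GMYC 6 inside the GTML range. Their log2 fold changes were -0.68 (SE 0.16, adjusted p = 0.0121) and -0.89 (SE 0.19, adjusted p = 0.00704) in edgeR's test. Because the 2 genes are close copies, reads may have been divided between them, and their separate values are uncertain.

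Eif3l and Eif3c were called lower in GTML as well. Eif3l was at 201 to 274 CPM in GMYC (median 237) and 121 to 213 in GTML (median 143), and Eif3c, a core subunit, at 268 to 362 (median 329) and 215 to 295 (median 240.4). GTML 2 was the highest GTML tumor for Eif3l, and GTML 1 for Eif3c, and both values fell inside the GMYC range. The log2 fold changes were -0.56 (SE 0.13, adjusted p = 0.0118) and -0.39 (SE 0.09, adjusted p = 0.0119) in edgeR's test. The named copies of Eif3e, Eif3s6-ps1 and Eif3s6-ps2, received 12 to 179 and 33 to 210 counts per tumor, and the values of Eif3e may share reads with them.

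The eIF3 subunits did not all move alike over the tumors, and correlation between them was not tested. In GTML 2, Eif3i (195 CPM) and Eif3b (257 CPM) lay above every GMYC tumor, while 4 subunits lay below. The median log2 deviation of the subunits from the gene means was 0.02 to 0.44 in GMYC tumors. It was -0.40 to -0.29 in GTML 3 and GTML 5 to 8. GTML 1, GTML 2 and GTML 4, at 0.03, 0.13 and 0.03, lay inside the GMYC range, above GMYC 4 at 0.02. GTML 3 lay below all GMYC tumors for all 14 subunits, GTML 8 for 13, GTML 5, GTML 6 and GTML 7 for 12 each, GTML 4 for 7, GTML 1 for 6 and GTML 2 for 4, beside 20.8% to 27.9% of all genes tested over the 8 tumors. Without GTML 2, 12 of the 14 were called lower, beside 15.1% of all genes. GTML 2 was picked for its values in these factors, so that count is no separate support. Within the tumors of higher small nucleolar RNA share none was called, beside 0.0106% of all genes lower, and 9 of 14 were below 0. Within those of lower share 8 were called lower, beside 6.69% of all genes, and all 14 were below 0. Eif3h, for example, had log2 fold changes of 0.02 (SE 0.16) on the higher side and -0.90 (SE 0.15) on the lower side. For Eif3j1 they were -0.93 (SE 0.30) and -0.45 (SE 0.23). Eif3h was chosen as an example after its values were seen.

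**Figure D2:**
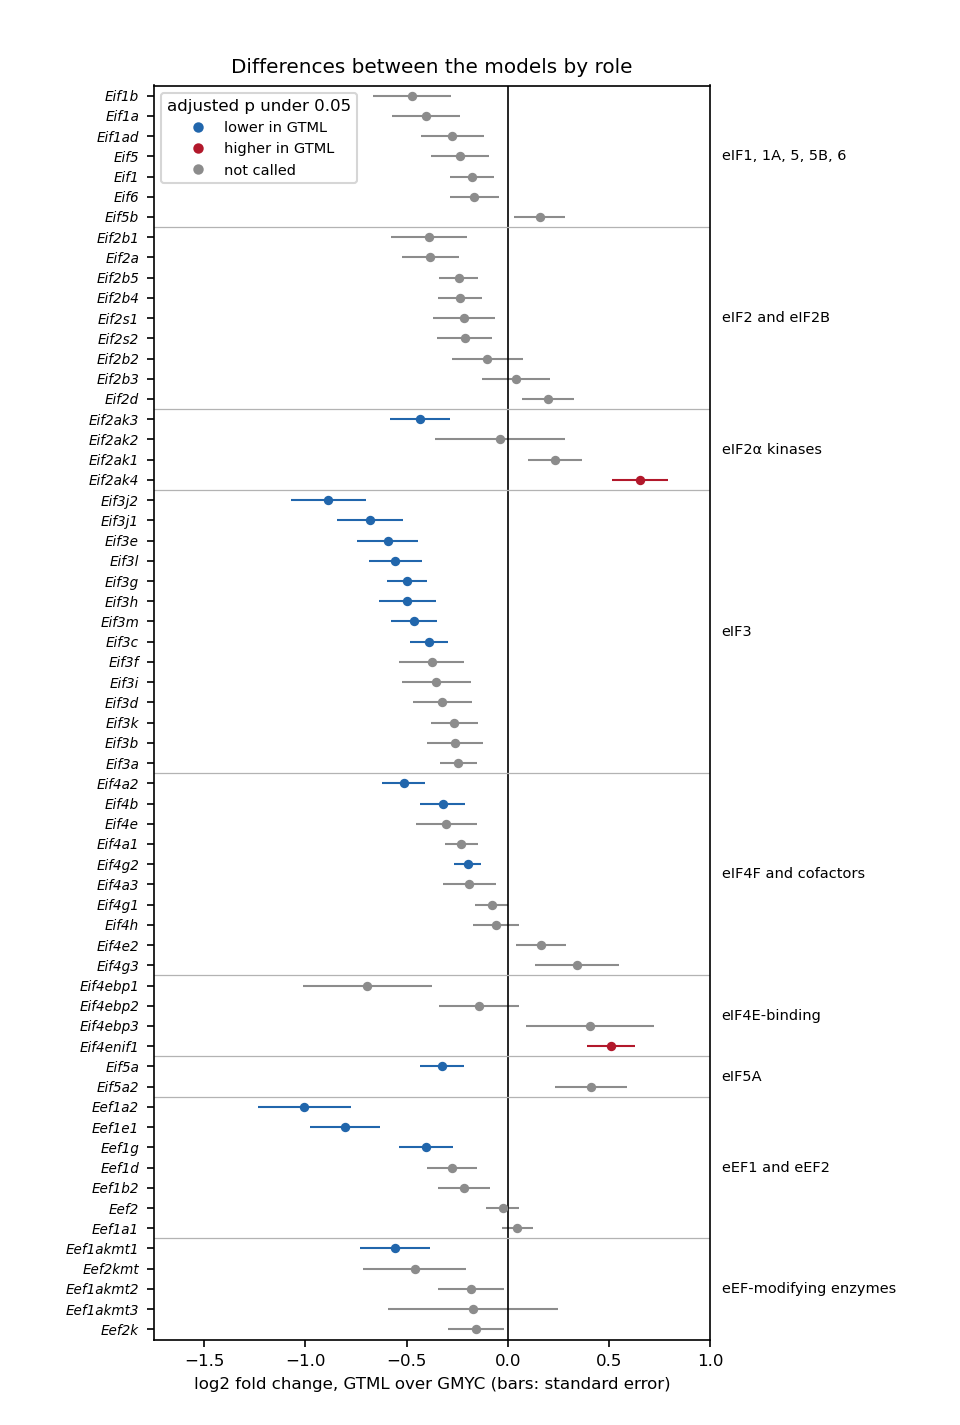
Log2 fold change of GTML over GMYC from edgeR for the 62 factors, grouped by role, with the bars giving the standard error and the color the call at an adjusted p under 0.05. All 14 eIF3 genes lie left of 0 and 8 of them are called, while the eIF2 and eIF2B genes hold no call.

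Of eIF4F and its cofactors, 10 of 11 genes were tested, and 3 were lower in GTML and none higher. Eif4a2, one of the paralogous helicase genes, was measured at 294, 271, 294, 229, 297 and 229 CPM in GMYC tumors 1 to 6 and at 144, 191, 209, 202, 180.4, 179, 175 and 226 CPM in GTML tumors 1 to 8. The models did not overlap, although GTML 8 came close to GMYC 4. The log2 fold change was -0.52 (SE 0.11, 1.43-fold higher in GMYC, adjusted p = 0.00651 in edgeR's test). Its paralog Eif4a1 was at 237 to 306 CPM in GMYC (median 259) and 193 to 253 in GTML (median 222), a difference that did not pass the test (-0.23, SE 0.08, adjusted p = 0.0548 in edgeR's test). Eif4b, the cofactor of the helicase (-0.32, SE 0.11), and Eif4g2, the eIF4G relative that lacks the eIF4E site (-0.20, SE 0.07), both had an adjusted p of 0.0471 in edgeR's test, and kept the call in 4 and 3 of the 14 fits that left out 1 tumor.

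Eif4e itself was not called. GMYC tumors 1 to 6 had 142, 143, 151, 112, 149 and 112 CPM, and GTML tumors 1 to 8 had 109, 171, 98.2, 128, 90.5, 88.1, 89.2 and 99.6 CPM. GTML 2 was the highest of the 14 tumors, GTML 4 lay inside the GMYC range, and the other 6 GTML tumors lay below every GMYC tumor. Over all tumors the log2 fold change was -0.30 (SE 0.15, adjusted p = 0.148 in edgeR's test), and it was -0.43 (SE 0.11, adjusted p = 0.0128) without GTML 2, and 0.04 (SE 0.22) within the tumors of higher small nucleolar RNA share. The fit without GTML 2 is no separate support, since that tumor was picked for its values in these factors. The scaffold genes were not called, with a log2 fold change of -0.08 (SE 0.08) for Eif4g1 and 0.34 (SE 0.21) for Eif4g3.

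The 4 genes that bind eIF4E and keep it from eIF4G did not move together. Eif4ebp1, the best known substrate of mTORC1 among them, had 41.8, 41.0, 60.3, 40.6, 57.8 and 25.4 CPM in GMYC tumors 1 to 6, and 25.8, 67.3, 11.98, 27.5, 21.1, 28.9, 17.5 and 19.4 CPM in GTML tumors 1 to 8. GTML 2 had the highest value of all 14 tumors, while the other 7 GTML tumors lay below 5 of the 6 GMYC tumors. The log2 fold change over all tumors was -0.69 (SE 0.32, adjusted p = 0.122 in edgeR's test), and without GTML 2 it was -1.03 (SE 0.23, adjusted p = 0.00572 in the same test). Setting GTML 2 aside for its high values makes the latter a description and no separate support. Eif4ebp2, the form known from brain, was at 28.2 to 42.6 CPM in GMYC and 18.3 to 43.8 in GTML and was not called (-0.14, SE 0.20). Eif4ebp3 was low, with 7 to 22 counts per tumor.

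Eif4enif1, the gene of the eIF4E transporter 4E-T, which carries eIF4E to the nucleus and to processing bodies, was the second factor higher in GTML. Its values in GMYC tumors 1 to 6 were 105, 115, 102, 92.2, 81.0 and 78.6 CPM, and in GTML tumors 1 to 8 115, 135, 112, 163, 154, 149, 144 and 119 CPM. GMYC 2 overlapped the 2 lowest GTML tumors, GTML 1 and GTML 3, and all other GMYC tumors lay below every GTML tumor. That gave a log2 fold change of 0.51 (SE 0.12, 1.42-fold, adjusted p = 0.0109 in edgeR's test), and the call was kept in all 14 fits that left out 1 tumor.

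**Figure D3:**
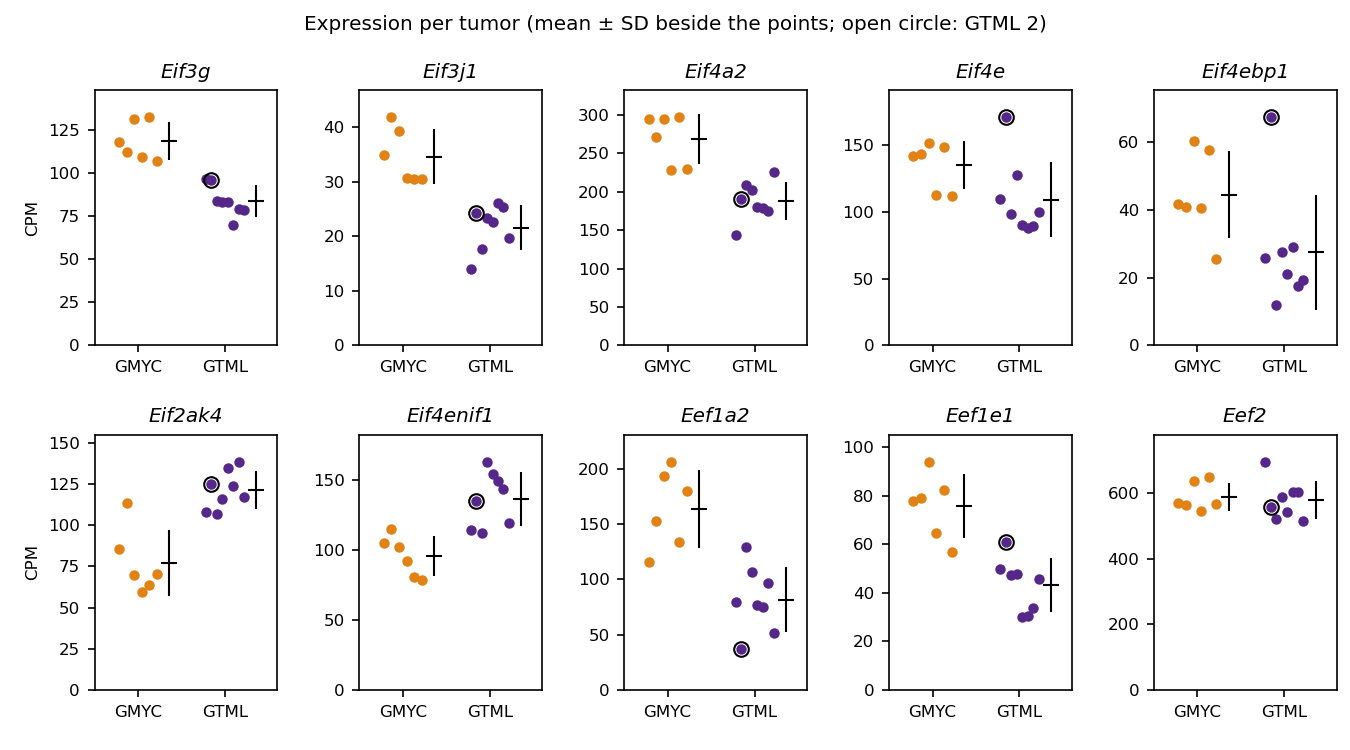
CPM in each of the 6 GMYC (orange) and 8 GTML (purple) tumors for 10 factors, with the mean ± SD beside the points and GTML 2 circled, each panel starting at 0. GTML 2 is the highest point for Eif4e and Eif4ebp1, and the models do not overlap for Eif3g, Eif3j1 and Eif4a2.

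The paralogous pair of eIF5A, the hypusine-carrying factor that relieves ribosomes stalled on prolines, held 1 call. Eif5a was at 183 to 235 CPM in GMYC (median 201) and 126 to 198 in GTML (median 158), and was called lower in GTML (-0.33, SE 0.11, adjusted p = 0.0453 in edgeR's test). That call was kept in 5 of the 14 fits that left out 1 tumor, and the pseudogene Eif5al3-ps, with 56 to 341 counts per tumor, may share its reads. Eif5a2, the less abundant paralog, was at 20.6 to 43.8 CPM in GMYC (median 33.1) and 32.4 to 60.3 in GTML (median 42.1), and was not called (0.41, SE 0.18, adjusted p = 0.106 in edgeR's test).

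The elongation factors held both the smallest and the largest log2 fold change in size among the 62. Eef2 had 571, 562, 637, 546, 648 and 568 CPM in GMYC tumors 1 to 6 and 695, 558, 521, 589, 543, 604, 603 and 514 CPM in GTML tumors 1 to 8. The values of both models were interleaved, with GTML 1 the highest and GTML 8 the lowest of all. Its log2 fold change was -0.03 (SE 0.08, adjusted p = 0.837 in edgeR's test). Eef1a1, the general form of the tRNA-delivering factor, was at 281 to 335 CPM in GMYC (median 299) and 278 to 359 in GTML (median 316), and was not called (0.05, SE 0.08, adjusted p = 0.681 in edgeR's test). Both had the highest levels of the group per kilobase of exon, at 177 and 174 CPM per kilobase in GMYC and GTML for Eef2 and 122 and 126 for Eef1a1.

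Eef1a2, the paralog that takes over from Eef1a1 in mature neurons and muscle, was lower in GTML. GMYC tumors 1 to 6 had 116, 152, 194, 206, 134 and 179.7 CPM, and GTML tumors 1 to 8 had 79.7, 37.1, 129.6, 106, 76.7, 74.7, 97.0 and 51.2 CPM. GTML 3 was above GMYC 1, and the other 7 GTML tumors lay below every GMYC tumor. The log2 fold change was -1.01 (SE 0.23, 2.01-fold higher in GMYC, adjusted p = 0.00954 in edgeR's test). Unlike most factors, Eef1a2 was lowest in GTML 2, and without that tumor the log2 fold change was -0.90 (adjusted p = 0.00481 in edgeR's test), a fit that is no separate support. Of the mature neuron markers, 1 was called lower in GTML, and their mean log2 CPM was 2.61 to 5.78 in GMYC and 3.21 to 4.18 in GTML. Their part in the difference was not tested.

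Eef1e1 carries the name of an elongation factor but encodes a scaffold of the multi-tRNA synthetase complex. It was at 77.7, 78.9, 93.8, 64.4, 82.1 and 56.7 CPM in GMYC tumors 1 to 6 and at 49.9, 61.0, 47.2, 47.6, 30.0, 30.3, 33.8 and 45.8 CPM in GTML tumors 1 to 8. GMYC 6, the lowest GMYC tumor, was below GTML 2 alone. It had a log2 fold change of -0.81 (SE 0.17, 1.75-fold higher in GMYC, adjusted p = 0.00783 in edgeR's test). Of the 3 genes of the eEF1A exchange factor, Eef1g was called lower (-0.40, SE 0.13, adjusted p = 0.043 in edgeR's test, kept in 5 of the 14 fits that left out 1 tumor), and Eef1d (-0.28, SE 0.12) and Eef1b2 (-0.22, SE 0.13) were not.

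The 5 enzymes that modify the elongation factors all had log2 fold changes below 0, and 1 was called. Eef1akmt1, a lysine methyltransferase of eEF1A, was at 25.9 to 43.5 CPM in GMYC (median 36.0) and 17.8 to 32.5 in GTML (median 24.4), and GMYC 2 and GMYC 6 lay inside the GTML range. Its log2 fold change was -0.56 (SE 0.18, adjusted p = 0.0347 in edgeR's test), and the call was kept in 7 of the 14 fits. Eef2k, the kinase that inhibits eEF2, was not called (-0.16, SE 0.14). Eef1akmt3 was low, with 3 to 27 counts per tumor.

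Ratios between related factors within a tumor do not depend on the scaling of its library. Of the 6 ratios compared with an exact two-sided permutation test over tumors, whose smallest possible p is 0.000333, 2 differed after Benjamini-Hochberg adjustment. The ratio of Eef1a2 to Eef1a1 had a median of 0.562 in GMYC and 0.243 in GTML, and on the log2 scale it was -0.92 ± 0.37 (SD, n = 6) and -2.03 ± 0.61 (SD, n = 8). The mean difference was -1.11 on the log2 scale (exact permutation p = 0.00266, adjusted p = 0.00799), and 7 of 8 GTML tumors lay below the GMYC range of -1.38 to -0.45, with GTML 3 inside it.

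The ratio of Eif5a2 to Eif5a had a median of 0.166 in GMYC and 0.283 in GTML, with a mean difference of 0.75 on the log2 scale (exact permutation p = 0.00233, adjusted p = 0.00799). GTML 1, at -2.60 on the log2 scale, lay inside the GMYC range of -3.30 to -2.13, and the other 7 GTML tumors lay above it. It came to 0.28 in the tumors of higher small nucleolar RNA share and to 1.31 in those of lower share, with exact permutation tests that cannot go below 0.0667 and 0.0357. The ratio of Eif4a2 to Eif4a1 had a mean difference of -0.29 (exact permutation p = 0.03, adjusted p = 0.0599). That of Eif4ebp2 to Eif4ebp1 differed by 0.64 (adjusted exact permutation p = 0.0911), that of Eif4ebp1 to Eif4e by -0.48 (adjusted exact permutation p = 0.0899) and that of Eif4g3 to Eif4g1 by 0.35 (adjusted exact permutation p = 0.149). Leaving out GTML 2 brought the adjusted exact permutation p of the first 3 of these 4 ratios to 0.0469, 0.0117 and 0.0219. Because GTML 2 was picked for its values in these same factors, these p-values are a description and no separate support.

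**Figure D4:**
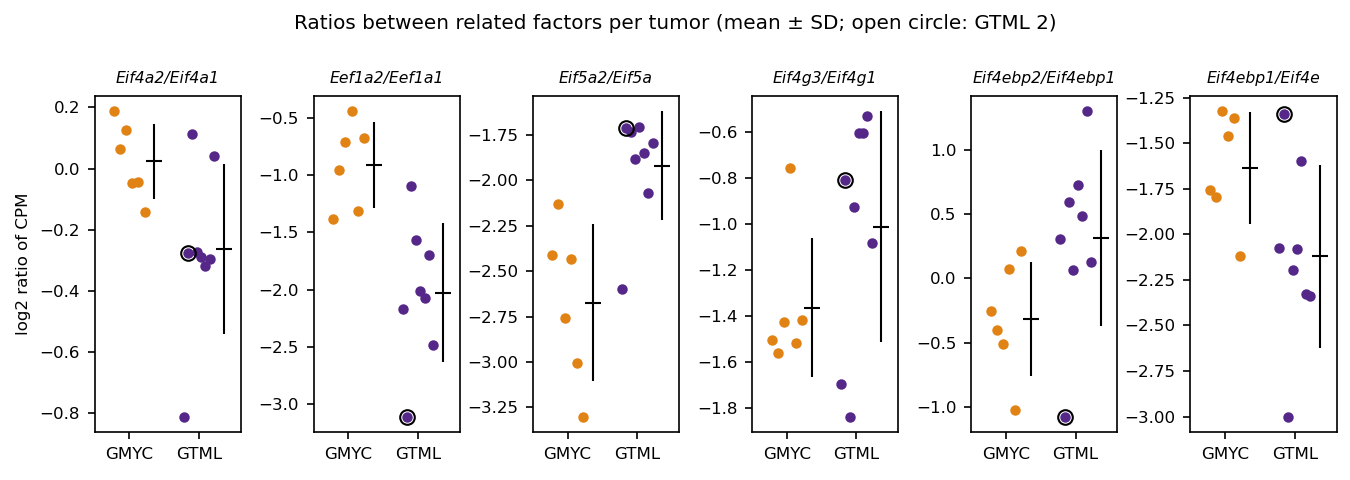
Log2 ratio of CPM between related factors in each GMYC (orange) and GTML (purple) tumor, with the mean ± SD beside the points and GTML 2 circled. The Eef1a2 to Eef1a1 ratio is lower in GTML and the Eif5a2 to Eif5a ratio higher, with GTML 1 alone inside the GMYC range of the latter.

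The number of reads per exon base had an upper limit in these libraries, which touches the most abundant factors. The densest protein-coding gene of a tumor had between 1.03 and 1.27 counts per exon base, taken over all annotated exons, and Eef2 reached 1.25. The 6 GMYC libraries, whose totals ran from 6218378 to 7279811, gave Eef1a1 between 2035 and 2107 counts and Eef2 between 3978 and 4164. Of the 25 tested factors under 0.2 counts per exon base in every tumor, 4 were called lower and 2 higher, with a median log2 fold change of -0.16. Of the 30 between 0.2 and 0.6, 8 were called lower, with a median of -0.25, and of the 7 at 0.6 or more, 5 were called lower, with a median of -0.33. These sets were formed from the highest raw count in any tumor, and the GMYC libraries were the larger ones. A factor higher in GMYC could thus enter a denser set through GMYC tumors alone. Eef1a2, at 0.733, had up to 1528 counts in GMYC and up to 779 in GTML. The rise over the sets is therefore partly built in and is no separate result. The part of this limit in the small differences of Eef2 and Eef1a1, and in the ratio of Eef1a2 to Eef1a1, was not tested.

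**Figure D5:**
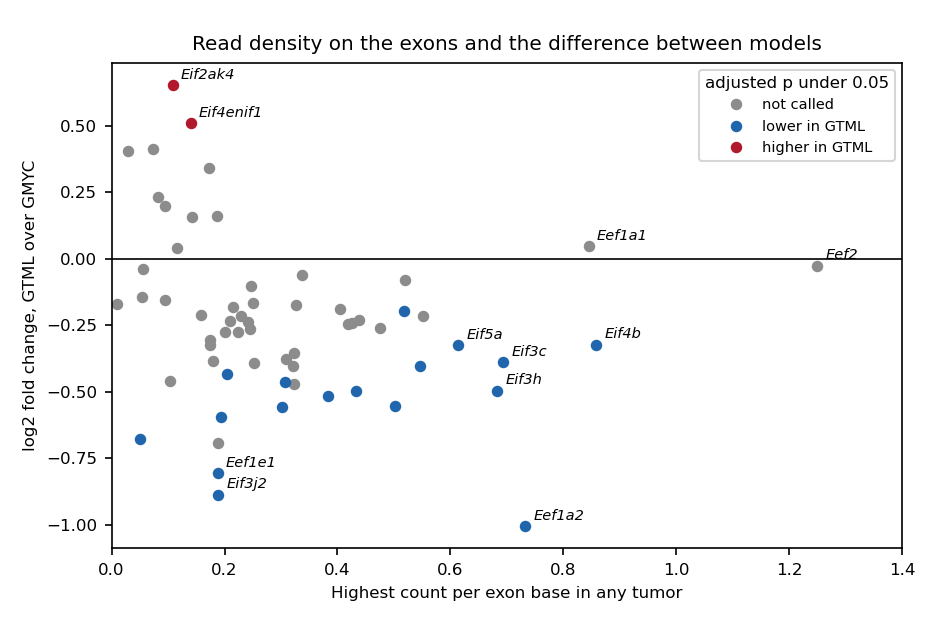
Highest number of counts per exon base in any tumor against the log2 fold change of GTML over GMYC for the 62 factors, with the color giving the call at an adjusted p under 0.05. Eef2 lies farthest to the right and Eef2 and Eef1a1 lie close to 0, and factors called lower are found at low and high density.

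Genes that act on or beside these factors were taken from 4 lists. Their calls stand beside 9.71% of all genes tested called lower in GTML and 11.5% called higher, and no list was tested as a set. Of 17 genes of mTORC1 and MNK signaling to translation, 3 were higher in GTML (Tsc1, Rptor and Mknk1) and 2 lower (Deptor and Lamtor1), with a median log2 fold change of 0.01. Tsc1, whose product restrains mTORC1, had 172 ± 18.4 CPM in GMYC (SD, n = 6) and 246 ± 39.5 in GTML (SD, n = 8), with a log2 fold change of 0.52 (SE 0.12) and an adjusted p of 0.00904 in edgeR's test. Deptor, an mTOR inhibitor, had 147 ± 77.3 CPM in GMYC (SD, n = 6) and 55.4 ± 33.8 in GTML (SD, n = 8), with a log2 fold change of -1.41 (SE 0.37) and an adjusted p of 0.0172 in edgeR's test. Tsc1 and Deptor, both known to restrain mTORC1, were called in opposite directions.

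Of 13 genes of the response to eIF2 phosphorylation, 1 was called, and it was lower in GTML, a share near the 9.71% of all genes tested. It was Asns, the asparagine synthetase gene, at 187 ± 28.2 CPM in GMYC (SD, n = 6) and 120 ± 34.8 in GTML (SD, n = 8), with a log2 fold change of -0.64 (SE 0.17) and an adjusted p of 0.0164 in edgeR's test. Atf4, the transcription factor of this response, had a log2 fold change of -0.26 (SE 0.11, adjusted p = 0.0958 in edgeR's test), and the median of the list was 0.19.

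Of 17 genes of termination, recycling and messenger RNA binding, 16 had a log2 fold change below 0, with a median of -0.26. Of these genes, 3 were called lower, beside 9.71% of all genes tested. These were Hbs1l, a rescue factor of stalled ribosomes (-0.51, SE 0.09, adjusted p = 0.00409), and the release factor genes Etf1 (-0.47, SE 0.12, adjusted p = 0.014) and Gspt1 (-0.26, SE 0.08, adjusted p = 0.0296), all by edgeR's test. Of 10 mitochondrial translation factors, 9 were below 0, with a median of -0.30, and 2 were called lower, the partners Tufm (-0.83, SE 0.14, adjusted p = 0.00338) and Tsfm (-0.55, SE 0.13, adjusted p = 0.0103), which are the mitochondrial counterparts of eEF1A and its exchange factor, by edgeR's test.

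The promoter letters were set beside the calls. Of the 11 factors with a window that were lower in GTML, 1 held CACGTG, which was Eif5a, and of the 35 that were not called, 11 held it. Neither of the 2 factors higher in GTML did. The related letters CACGCG or CGCGTG were held by 3 of the 11 factors lower in GTML (27.3%), 6 of the 35 not called (17.1%) and 1 of the 2 higher. No difference between these sets was tested. Eif4e and Eif5a2, whose sequences carry 2 copies of CACGTG, had log2 fold changes of -0.30 and 0.41, and Eef2 with 1 copy had -0.03. Eif3g, with no CACGTG but with the related letters CGCGTG, had -0.50.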

How the data were processed

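Biopsy RNA was prepared with Ion Torrent protocols. According to the study's methods and the submitters' processing notes, reads were aligned to mm9 with STAR and then Bowtie and counted per gene with featureCounts of Subread 1.5.2 on GENCODE annotation. The versions of the aligners differ between these sources, and strand and duplicate handling are not given in the sources used here. The authors deposited whole-number counts of reads for 37310 genes, without normalization; total counts bound the precision of each value, and only counting error follows from them. Symbols, gene types and exon lengths were taken by Ensembl identifier from GENCODE vM21 (32620 genes, 87.4%), and promoter sequences from RefSeq on GRCm38.p6; no mm9 coordinates are given. A further 18 count columns have names that match no label, so the cell line and Arf knockout comparisons were not analysed here. Eif4e3, Eef1akmt4 and Eef1aknmt were not analysed here, which left 6 of 7 planned ratios.

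Models were tested by edgeR 4.0.16 (R 4.3.3) with TMM normalization and the quasi-likelihood test, without covariates and with Benjamini-Hochberg adjustment. Genes entered if their CPM exceeded 1 in 3 tumors or more, and were called at an adjusted p under 0.05. The ratios used log2 CPM with a prior count of 2 and 3003 exact permutations. The alternatives were DESeq2 1.42.0, limma-voom 3.58.1, other normalizations, filters and thresholds, thinned counts, left-out tumors, the small nucleolar RNA split and the replicate number as a block. On simulated counts for this comparison over 21024 genes, the test called 69 of 100 genes changed by 2 on the log2 scale, 34 of 100 changed by 1, and 5 of 20824 unchanged genes, so smaller differences may be missed. The changed genes were drawn at random from all genes tested, whatever their abundance, and were far fewer than the calls in the data. These rates therefore do not give the power of the test for the factors. No pair of tumors of a model agreed within sampling noise (lowest chi-square per degree of freedom 5.67). Numbers 1 to 6 occur in both models, and the deviations of same-numbered tumors did not correlate throughout, so tumors were not paired.

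The genes and lists were chosen with earlier results of these data known. Genes were named by rule: Eif4e and Eef2, the smallest p of each role, up to 8 called genes per direction, the genes of the ratios, those not tested and the 2 with the smallest p of each list. Other genes with values were chosen after their values were seen.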

Additional observations from a re-analysis of the deposited data

Results flagged for a closer look

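In 58 groups of tumors examined for a single tumor far from the rest (Dixon's test at the 95% level, which chance alone meets in about 1 group in 20, or 2.9 of 58), 5 were met. Eif4ebp1 in GTML 2 had 67.3 CPM, against 28.9 in the next GTML tumor. Eif4g3 in GMYC 4 had 258.5 CPM, against 194 in the next GMYC tumor, and the log2 ratio of Eif4g3 to Eif4g1 in that tumor was -0.76, the highest of the GMYC tumors. The log2 ratio of Eif4a2 to Eif4a1 in GTML 1 was -0.81 and that of Eif5a2 to Eif5a in the same tumor was -2.60, the lowest GTML values of both.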

How the results depend on the processing

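The count of 17 factors lower in GTML was 18 with DESeq2, 17 with limma-voom, 16 without TMM, 15 with DESeq2 size factors or filterByExpr, and 14 on thinned counts. It was 11 without a filter on low counts (4.96% of all genes lower), 5 lower and 1 higher at an adjusted p under 0.01, 8 lower with a log2 fold change beyond 0.5 in size, 4 among factors under 0.2 counts per exon base and 12 with the small nucleolar RNA split as a covariate (6.77%). It ranged from 10 to 30 when 1 tumor was left out, with 2 higher throughout, and the median from -0.31 to -0.22. The count was 10 without GMYC 3 or GMYC 5 (5.65% and 6.43% of all genes lower), 11 without GMYC 1, GTML 5, GTML 7 or GTML 8 (6.58% to 7.99%), and 30 without GTML 2 (15.1%), beside 9.71% with all tumors. Of the 19 calls, 12 were made in every such fit. Within the higher-share tumors 0 were lower and 0 higher (median -0.0045), and within the lower-share tumors 10 were lower (median -0.40).

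Eef2 changed sign with filterByExpr (0.007), without GMYC 5 (0.0026, within a range from -0.0669 with 1 tumor left out) and within the higher-share tumors (0.125). There Atf4 (0.0464), Eif1b (0.0659), Eif4e (0.0403), Eif4ebp1 (0.0311), Eif5a (0.0097), Eif3h (0.0153), Eif4b (0.087) and the Eif4ebp2 to Eif4ebp1 ratio (-0.11) were reversed too, and within the lower-share tumors Eef1a1 (-0.0451) and Eif4ebp2 (0.10). The Eef1a2 to Eef1a1 ratio no longer passed on either side (-1.76 and -0.825), nor did that of Eif5a2 to Eif5a (0.28 and 1.31). The Eif4a2 to Eif4a1 ratio passed with that covariate (-0.34), and ranged from -0.34 to -0.21 with 1 tumor left out, while Eif4ebp2 to Eif4ebp1 ranged from 0.49 to 0.83 and Eif4ebp1 to Eif4e from -0.59 to -0.36. The cause was not tested.

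The replicate numbers showed no pairing: correlations of same-numbered tumors ran from -0.21 to 0.24, and number 1 alone correlated best with its own number. With the replicate block over tumors 1 to 6, 0 factors were lower and 0 higher (15 and 3 at an unadjusted p under 0.05; 0.437% of all genes lower), against 10 and 2 for the same tumors without the block (5.11%), and the ratios of Eef1a2 to Eef1a1 (-1.09) and Eif5a2 to Eif5a (0.76) no longer passed.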
